A study of Mus musculus with 72 samples.

Results

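The genes of cholesterol synthesis and handling were followed through the postnatal brain of Ts1Cje and disomic mice. The members are 30 genes chosen by symbol: 8 of the mevalonate pathway, 11 of the sterol pathway, 4 regulators, 6 genes of cholesterol transport and turnover, and *Lpin1*. Each gene was represented by the probe set of its symbol with the highest mean over all arrays. A probe set of that symbol was found for 29 of the 30 members, out of 18194 genes with a probe set in the series; *Acat2* was not analysed here. The 29 include 18 synthesis genes, 7 of the mevalonate pathway and 11 of the sterol pathway.

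Total RNA from cerebral cortex, cerebellum and hippocampus was hybridised to 72 Affymetrix mouse whole-genome arrays, 1 region of 1 mouse on each. Mice were taken at postnatal day 1 (P1; the methods name P1.5) and at P15, P30 and P84, with 3 Ts1Cje and 3 disomic littermates at each age. Ts1Cje mice (labelled trisomic) carry 3 copies of a segment of mouse chromosome 16 (MMU16), which a translocation placed on MMU12, and a small monosomy at the end of MMU12. They came from Ts1Cje males crossed with C57BL/6 females, the controls were their disomic C57BL/6 littermates, and the labels name no treatment. All mice are labelled female, although on 69 of the 72 arrays *Xist* lay below *Eif2s3y*, a gene of the Y chromosome, and on 3 above it. Those 3 were the Ts1Cje P1 replicate 3 arrays of cerebral cortex, cerebellum and hippocampus, so that the Ts1Cje P1 groups are mixed in this respect.

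Cholesterol is built from acetyl-CoA, first through mevalonate to farnesyl diphosphate and then through squalene and lanosterol to cholesterol. When membrane sterol is low, the transcription factor encoded by *Srebf2* leaves the endoplasmic reticulum with its escort Scap and turns on most genes of the pathway; the Insig proteins hold it back when sterol is high. The brain makes its own cholesterol because plasma lipoproteins do not cross the blood-brain barrier, and much of it goes into myelin while the brain matures.

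Values are on the authors' log2 scale, so that a difference of 1 is a 2-fold change, and levels of different probe sets are not compared with each other. A gene was called where limma's moderated t was at least 4 in size and the Benjamini-Hochberg adjusted p over all probe sets was at most 0.05, the study's own thresholds. Age and region comparisons average the genotypes, with 6 arrays at each region and age. Of the 29 members, 28 lay above the array's median probe set, which ran from 3.20 to 3.37, on all 72 arrays, and *Mvd* lay below it on 5. In whole tissue, fewer cells of a type and less RNA per cell cannot be told apart.

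Arrays that stood apart were set aside in turn. The disomic replicate 3 array labelled P15 cerebellum lay at 0.0118 on an axis running from hippocampus (0) to cerebellum (1), and the one labelled P15 hippocampus lay at 0.988, while the other P15 cerebellum arrays lay at 0.985 or above and the other P15 hippocampus arrays at 0.0162 or below. Both go against their labels, so that P15 results of these regions are given with them, and calls and values that moved without them are given beside. Another 3 arrays, all disomic replicate 3 (P1 cerebellum, P84 cerebral cortex and P84 hippocampus), were dim, with upper quartiles of 4.97 to 5.51 against 5.65 to 5.93 on the others.

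Promoters of 4 synthesis genes called lower at P84 than at P30 are shown because these genes carry the main result. The 250 bases before the RefSeq start are given 5′ to 3′ on the gene's strand (GRCm38.p6): *Hmgcs1* at chr13:119690101-119690350 (plus strand), *Idi1* at chr13:8885356-8885605 (plus), *Cyp51* at chr5:4104698-4104947 (minus) and *Msmo1* at chr8:64733579-64733828 (minus). Capitals mark CCAAT on either strand, the binding motif of the NF-Y factor that is known to act beside the *Srebf2* product.
Hmgcs1: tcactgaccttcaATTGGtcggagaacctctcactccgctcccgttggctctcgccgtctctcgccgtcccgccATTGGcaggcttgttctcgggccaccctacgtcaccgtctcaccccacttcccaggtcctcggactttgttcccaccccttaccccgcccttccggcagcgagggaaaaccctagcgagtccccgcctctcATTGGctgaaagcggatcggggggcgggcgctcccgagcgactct
Idi1: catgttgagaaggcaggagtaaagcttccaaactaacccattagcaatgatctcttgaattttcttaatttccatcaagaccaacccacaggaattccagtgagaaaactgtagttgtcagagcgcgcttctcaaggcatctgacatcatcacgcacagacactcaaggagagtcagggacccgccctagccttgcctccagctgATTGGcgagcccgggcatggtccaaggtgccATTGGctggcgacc
Cyp51: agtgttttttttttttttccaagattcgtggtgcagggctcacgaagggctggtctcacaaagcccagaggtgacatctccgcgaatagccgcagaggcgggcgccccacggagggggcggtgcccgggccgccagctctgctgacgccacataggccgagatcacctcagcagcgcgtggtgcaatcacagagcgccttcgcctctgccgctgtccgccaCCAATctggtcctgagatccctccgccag
Msmo1: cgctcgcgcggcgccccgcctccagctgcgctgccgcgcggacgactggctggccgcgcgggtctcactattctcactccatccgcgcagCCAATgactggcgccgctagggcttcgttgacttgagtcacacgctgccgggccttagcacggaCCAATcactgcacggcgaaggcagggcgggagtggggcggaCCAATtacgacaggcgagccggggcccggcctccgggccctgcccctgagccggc
*Hmgcs1* and *Msmo1* held 3 CCAAT matches each in these 250 bases, *Idi1* held 2 and *Cyp51* held 1. The match nearest to the start began 45 bases before it in *Hmgcs1*, 14 in *Idi1*, 29 in *Cyp51* and 55 in *Msmo1*.

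Promoter sequences (250 bases before to 50 after a start) were listed for 24 of the 29 members and for 27025 genes in all, and none was listed for *Fdps*, *Fdft1*, *Sqle*, *Stard4* or *Npc1*. CCAAT on either strand was found in 20 of the 24 members (83.3%), including all 15 synthesis genes with a promoter, against 41.1% of all genes. CACGTG, the palindromic E-box, was found in 6 of the 24 (25%: *Hsd17b7*, *Sc5d*, *Dhcr7*, *Scap*, *Insig1* and *Abca1*), against 8.09% of all genes. A single spelling of the sterol regulatory element, searched on either strand, was in none of the 24 and in 0.27% of all genes; this says only that these letters are not in this window. A gene with several listed starts counted once, as holding a motif where any of its starts held it. *Dhcr7*, *Pmvk* and *Insig2*, counted for CCAAT, also had starts without it. A CCAAT match and an E-box match can share no more than their end letters, and a match is a description of the letters and not of binding.

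Between P30 and P84, genes of cholesterol synthesis fell in all 3 regions, with the most calls in cerebellum. The difference P84 minus P30 was below 0 for all 18 synthesis genes in cerebellum and hippocampus and for 16 of 18 in cerebral cortex, with a median of -0.60, -0.50 and -0.40, while the median of all genes was 0.01, -0.02 and -0.02. Of the 29 members, 7 were called lower in cerebellum, 5 in hippocampus and 4 in cerebral cortex, and none was called higher. Over all genes the share called in either direction was 0.918%, 0.462% and 0.407%, and the share called lower was 0.566%, 0.407% and 0.297%. All calls were synthesis genes, and *Hmgcs1*, *Idi1*, *Sqle* and *Cyp51* were called in all 3 regions.

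In the mevalonate pathway, *Hmgcs1* encodes the synthase that makes HMG-CoA. On the 6 cerebellum arrays it lay at 11.09 to 11.49 (median 11.36) at P30 and at 10.52 or below (median 10.17) at P84, so that every adult array was below every P30 array. It fell by 1.13 on the log2 scale (2.19-fold, 95% confidence interval -1.31 to -0.96, adjusted p = 1.13e-13). In cerebral cortex the P84 arrays (10.93 to 11.36, median 11.22) were again all below the P30 arrays (11.48 to 11.93, median 11.71), and *Hmgcs1* fell by 0.49 (adjusted p = 0.000951). In hippocampus it ran from 11.24 to 11.64 (median 11.58) at P30 and from 10.53 to 11.28 (median 11.01) at P84. The ranges overlapped there by a narrow margin, and the fall was 0.52 (adjusted p = 0.000261).

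*Idi1* encodes the isomerase that gives the pathway its reactive isoprene unit. In cerebellum it lay at 8.76 to 9.43 (median 9.18) at P30 and at 7.84 to 8.97 (median 8.24) at P84, and 1 P84 array, a Ts1Cje one at 8.97, reached into the P30 range. The fall was 0.88 in cerebellum (1.84-fold, adjusted p = 1.06e-08), 0.53 in hippocampus (adjusted p = 0.00127) and 0.44 in cerebral cortex (adjusted p = 0.0201). The cerebral cortex call was lost without the dim arrays (adjusted p = 0.0602) and kept without all 5 doubted arrays, displaced and dim. *Fdps*, farnesyl diphosphate synthase, had differences of -0.64, -0.73 and -0.29 in cerebellum, hippocampus and cerebral cortex and was not called. *Ggps1*, which turns farnesyl diphosphate away from sterols to geranylgeranyl diphosphate, differed by 0.05, -0.12 and -0.05 in cerebral cortex, cerebellum and hippocampus.

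In the sterol pathway, *Sqle* encodes squalene epoxidase, a rate-limiting enzyme. It lay at 6.87 to 7.65 (median 7.45) in P30 cerebellum and at 5.5 to 6.07 (median 5.83) at P84, and fell by 1.55 (2.93-fold, 95% confidence interval -1.82 to -1.28, adjusted p = 4.93e-12). The P84 arrays were all below the P30 arrays in the other two regions too: 6.70 to 7.62 against 7.92 to 8.41 in hippocampus and 6.89 to 7.70 against 7.82 to 8.26 in cerebral cortex. *Sqle* fell by 0.95 in hippocampus (adjusted p = 1.18e-05) and by 0.71 in cerebral cortex (adjusted p = 0.00229).

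*Cyp51* encodes lanosterol demethylase, the first enzyme after the ring is closed. In cerebellum it lay at 7.94 to 8.85 (median 8.62) at P30 and at 6.91 to 7.75 (median 7.09) at P84, without overlap, and fell by 1.36 (2.57-fold, adjusted p = 2.19e-14). In hippocampus its P84 arrays (7.53 to 7.97) lay below its P30 arrays (8.50 to 8.71) by a wide gap, and the fall was 0.83 (adjusted p = 2.66e-07). In cerebral cortex the ranges were 7.82 to 8.12 at P84 and 8.34 to 8.86 at P30, and the fall was 0.66 (adjusted p = 3.37e-05).

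*Msmo1*, the methylsterol oxidase of a later step, lay at 8.31 to 8.70 (median 8.57) in P30 cerebellum and at 6.88 to 7.83 (median 7.32) at P84. It fell by 1.19 there (2.29-fold, adjusted p = 1.14e-07). In cerebral cortex and hippocampus its differences were -0.37 and -0.40 and it was not called (adjusted p = 0.6 and 0.606). *Fdft1*, squalene synthase, ran from 8.39 to 9.51 at P30 and from 7.76 to 9.12 at P84 in cerebellum, with overlapping ranges, and fell by 0.78 (adjusted p = 0.00641), while its differences in cerebral cortex and hippocampus were -0.08 and -0.28. Its probe set is of a kind that can also match related transcripts, and the other probe set of *Fdft1* that lies well above the array median gave a called difference of -0.54 in cerebellum.

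*Dhcr7* encodes the reductase of the last step to cholesterol. Its P84 arrays lay at 4.92 to 5.51 in cerebellum and at 5.58 to 6.38 in hippocampus, below all P30 arrays of the same region (5.94 to 6.67 and 6.71 to 7.05), and it fell by 1.01 (adjusted p = 0.000254) and by 0.89 (adjusted p = 0.00392). In cerebral cortex its difference of -0.69 was not called (adjusted p = 0.0708), except without the 5 doubted arrays (-0.57, adjusted p = 0.0286). The other sterol pathway genes, *Lss*, *Tm7sf2*, *Nsdhl*, *Hsd17b7*, *Ebp* and *Sc5d*, were below 0 in each region and were not called, with differences from -0.65 to -0.19.

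**Figure D1:**
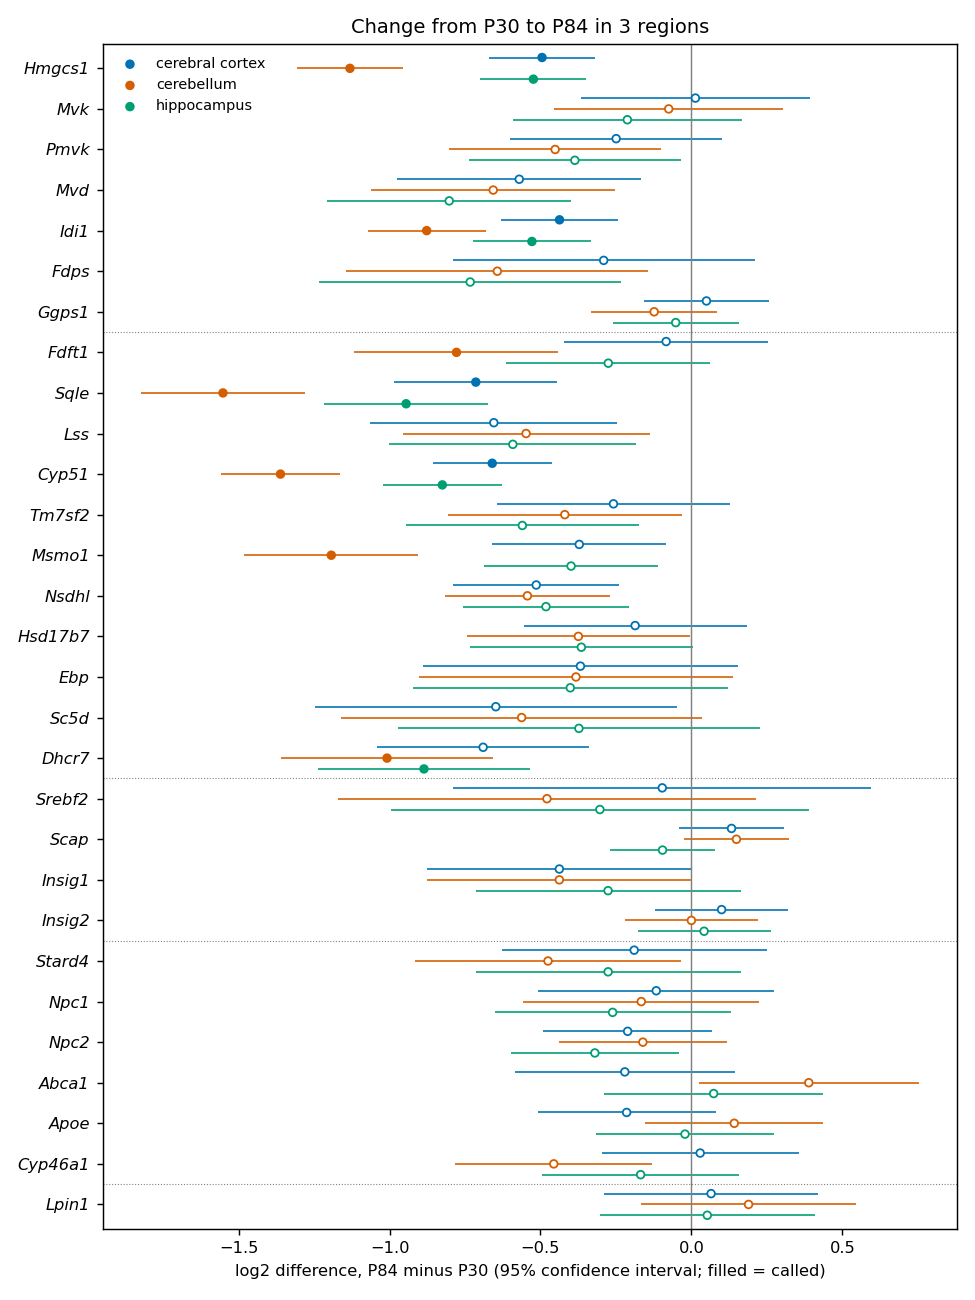
Log2 difference P84 minus P30 for each measured member (x axis) with its 95% confidence interval, by region; filled points were called, and dotted lines separate mevalonate genes, sterol genes, regulators, transport and turnover genes, and *Lpin1*. Points of the first and second blocks lie left of 0 with the exception of *Mvk* and *Ggps1* in cerebral cortex, and the cerebellum points of *Sqle*, *Cyp51*, *Msmo1* and *Hmgcs1* lie between -1.55 and -1.13.

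The regulators and the transport genes gave no call in this step. *Srebf2* had differences of -0.10, -0.48 and -0.30 in cerebral cortex, cerebellum and hippocampus, with intervals as wide as -1.17 to 0.21, so that a fall of the size seen for *Sqle* in cerebral cortex lies inside them. *Scap*, the escort of the transcription factor, had differences of 0.13, 0.15 and -0.10. *Insig2*, which holds the Scap complex in the endoplasmic reticulum, differed by 0.10, 0.00 and 0.04, with an interval of -0.22 to 0.22 in cerebellum. *Insig1*, itself a known target of the *Srebf2* product, had differences of -0.44, -0.44 and -0.28 and was not called, with an interval of -0.88 to 0.00 in cerebral cortex. *Apoe*, the lipoprotein of astrocytes, differed by -0.21, 0.14 and -0.02, and *Cyp46a1*, the neuronal hydroxylase that lets cholesterol leave the brain, by 0.03, -0.46 and -0.17.

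Genes next to the pathway gave few calls between P30 and P84. Of 12 fatty acid synthesis genes, *Elovl6*, a fatty acid elongase, was called in hippocampus (fell by 0.81, adjusted p = 0.0163), none was called in cerebral cortex or cerebellum, and the medians were -0.15, -0.13 and -0.18 in cerebral cortex, cerebellum and hippocampus. None of 19 genes of sterol uptake, esterification and transport, none of 6 of sterol sensing and none of 9 of the isoprenoid branch was called in any region by limma's test. Their medians lay between -0.14 and 0.15.

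Some myelin genes fell in the same step. Of 11 measured genes of myelinating oligodendrocytes, 2 were called lower in cerebral cortex, 6 in cerebellum and 6 in hippocampus, and none higher, with medians of -0.61, -0.99 and -0.95. Their mean level on an array ran from 10.28 to 10.53 at P30 and from 9.35 to 9.60 at P84 in cerebellum, and from 9.89 to 10.20 and from 9.18 to 9.65 in cerebral cortex. *Mog*, a protein of the myelin surface, was lower in all 3 regions, with differences of -1.31, -1.63 and -1.37 in cerebral cortex, cerebellum and hippocampus. By contrast, 8 astrocyte genes had medians of -0.21, 0.06 and -0.19, and 7 genes of mature neurons had medians of -0.02, 0.07 and -0.04, with no call. The part of the myelinating cells in the fall of the sterol genes was not tested.

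The cerebellum comparison holds none of the arrays that stood apart. Without the dim arrays the same 5 members were called in hippocampus, and 3 of the 4 in cerebral cortex. Without all 5 doubted arrays the 4 cerebral cortex calls were kept and *Dhcr7* was added there. The *Idi1* call in cerebral cortex was also lost when any of 5 single arrays was left out (adjusted p up to 0.103), and the *Fdft1* call in cerebellum for 3 single arrays (adjusted p up to 0.0425, moderated t under 4). In disomic arrays alone 3, 6 and 4 members were called in cerebral cortex, cerebellum and hippocampus, and in Ts1Cje arrays alone 0, 5 and 1.

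**Figure D2:**
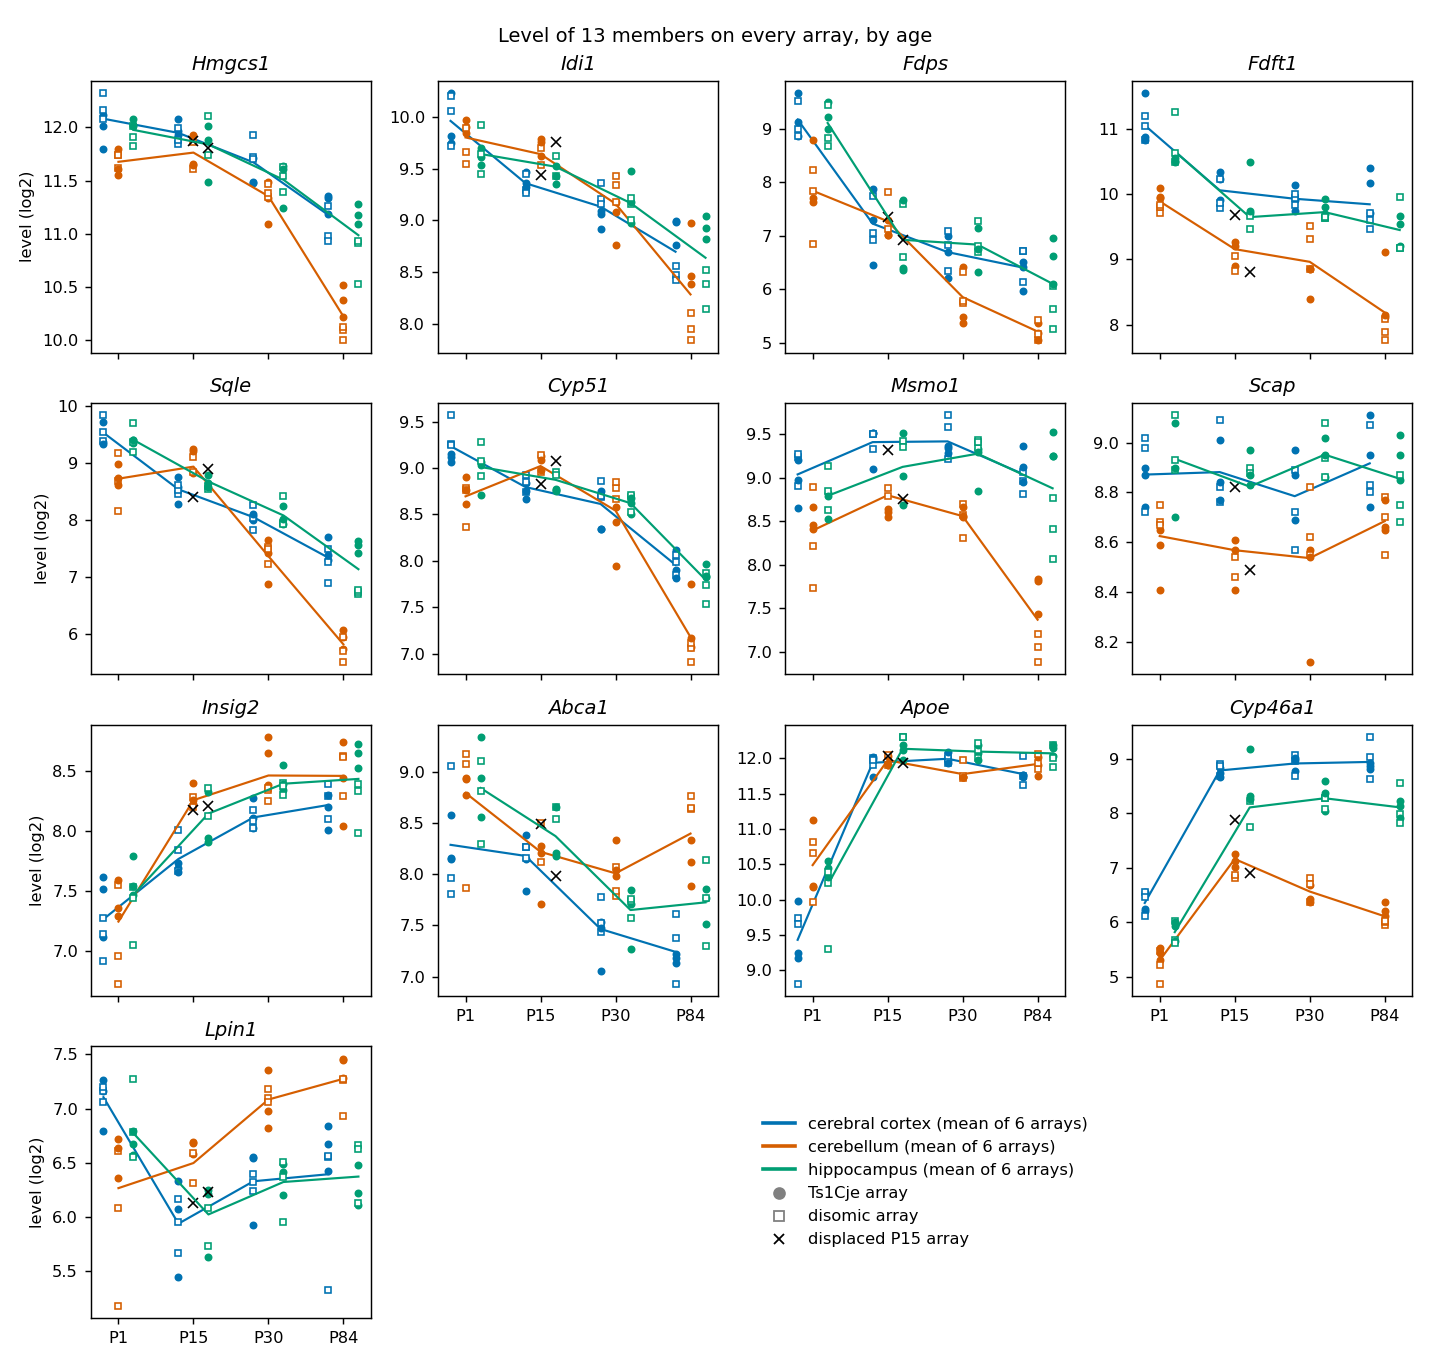
Log2 level (y axis) of 13 members on each of the 72 arrays at 4 ages (x axis, not to scale in time), by region; lines join the means of 6 arrays, filled circles are Ts1Cje and open squares disomic arrays, and crosses are the displaced P15 arrays. *Sqle*, *Cyp51* and *Hmgcs1* reach their lowest levels at P84 in each region, while *Apoe* and *Cyp46a1* rise between P1 and P15.

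From P1 to P15, members were called in both directions. Of the 29, 14 were called in cerebral cortex (5 higher, 9 lower), 5 in cerebellum (4 higher, 1 lower) and 10 in hippocampus (4 higher, 6 lower). Over all genes 30.5%, 27.5% and 25.7% were called, so that the count in cerebellum was below the share of all genes and the others were above it. *Ebp*, *Insig2*, *Apoe* and *Cyp46a1* were called higher in all 3 regions, and *Fdft1* was called lower in all 3. Without the displaced arrays the same 5 members were called in cerebellum, and *Mvd* (-0.89) was added in hippocampus, with 28.9% and 27.1% of all genes called.

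Among the genes that fell, *Fdps* lay at 8.86 to 9.66 (median 9.06) in P1 cerebral cortex and at 6.46 to 7.87 (median 7.18) at P15, a fall of 1.95 (3.85-fold, adjusted p = 3.35e-09). In hippocampus it lay at 8.68 to 9.49 at P1 and at 6.36 to 7.66 at P15, and fell by 2.18 (4.53-fold, adjusted p = 2.23e-10); no P15 array reached a P1 array in either region. In cerebellum it began lower, at 6.85 to 8.78 (median 7.77), and its difference of -0.57 was not called. *Lss*, which closes the sterol ring, fell by 1.41 in cerebral cortex and by 1.23 in hippocampus, *Mvd*, the mevalonate decarboxylase, fell by 1.31 in cerebral cortex, and *Sqle* fell by 0.99 and by 0.73.

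*Fdft1* fell by 1.00 in cerebral cortex (10.84 to 11.55 at P1 against 9.79 to 10.34 at P15), by 0.73 in cerebellum (9.71 to 10.10 against 8.83 to 9.68) and by 1.01 in hippocampus (10.49 to 11.27 against 8.81 to 10.49). The arrays of both ages did not overlap in cerebral cortex or cerebellum and met in hippocampus, where the lowest P15 array was a displaced one. Without the displaced arrays the hippocampus P15 range was 9.46 to 10.49 and the call was kept, and without the dim P1 array the cerebellum call was lost (-0.72, adjusted p = 0.00108, moderated t under 4 in size) while *Abca1*, the efflux pump that loads lipoproteins, was called lower there (-0.78, adjusted p = 0.000179). Without the displaced arrays the difference of *Fdft1* was -0.85 in cerebellum and -0.88 in hippocampus. *Idi1* and *Cyp51* fell by 0.60 and 0.44 in cerebral cortex. *Lpin1*, a phosphatidate phosphatase of glycerolipid synthesis, fell by 1.17 in cerebral cortex and by 0.75 in hippocampus, and *Npc2*, which passes cholesterol out of lysosomes, fell by 0.57 and by 0.68.

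*Ebp*, the sterol isomerase, rose in all 3 regions. It lay at 4.34 to 4.88 (median 4.81) in P1 cerebral cortex and at 6.07 to 7.20 (median 6.86) at P15, and rose by 2.02 (4.06-fold, adjusted p = 3.68e-09). In cerebellum it rose by 2.22 and in hippocampus by 2.17, or by 2.57 and 1.91 without the displaced arrays. Its P15 range in cerebellum, 6.39 to 8.63 with all arrays, was 8.37 to 8.63 without the displaced one. *Tm7sf2*, a sterol reductase, rose by 0.93 in cerebral cortex.

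*Apoe* and *Cyp46a1* rose as well. *Apoe* lay at 8.81 to 9.98 in P1 cerebral cortex and at 11.73 to 12.01 at P15, and rose 5.66-fold (log2 difference 2.5, adjusted p = 1.04e-20), by 1.48 in cerebellum and by 1.92 in hippocampus. *Cyp46a1* lay at 6.11 to 6.55 and then at 8.67 to 8.91 in cerebral cortex, and rose by 2.43 (5.39-fold, adjusted p = 1.73e-18), by 1.85 in cerebellum and by 2.29 in hippocampus (1.68 and 2.47 without the displaced arrays). No P15 array overlapped a P1 array for either gene in these regions. *Insig2* rose by 0.50 in cerebral cortex, by 1.01 in cerebellum (6.73 to 7.59 at P1 against 8.17 to 8.40 at P15) and by 0.67 in hippocampus.

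Cell type markers changed in the same step. All 11 myelin genes were called higher in each region, with medians of 5.23, 5.08 and 5.67 in cerebral cortex, cerebellum and hippocampus, and 8, 5 and 8 of 8 astrocyte genes were called higher. All 6 immature neuron genes were called lower in cerebral cortex and cerebellum and 5 of 6 in hippocampus, with medians of -3.86, -2.37 and -3.09. The part of these cells in the members' changes was not tested. In sterol uptake, esterification and transport, 7, 9 and 8 of 19 genes were called higher and 1 lower in each region, among them *Clu*, an apolipoprotein (rose by 3.10, 3.06 and 2.20), and *Lcat*, which esterifies cholesterol on lipoproteins (rose by 1.88, 2.97 and 2.96). Of 12 fatty acid genes 3, 4 and 4 were called higher and 2, 3 and 3 lower, and *Acss2*, which makes acetyl-CoA from acetate, rose by 3.17, 2.22 and 2.96. Of 6 sterol sensing genes, 4 were called lower in cerebral cortex and hippocampus and 2 in cerebellum, and *Lbr*, another sterol reductase, was lower, with differences of -1.21, -1.54 and -0.96 in cerebral cortex, cerebellum and hippocampus.

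From P15 to P30 most calls were in cerebellum. There 8 members were called lower and none higher (6.15% of all genes called, 3.54% lower), all 8 of them synthesis genes, with a median of -0.48 over the 18 synthesis genes. In cerebral cortex and hippocampus 14 of the 18 were below 0 as well, with medians of -0.22 and -0.26. One member was called in cerebral cortex, *Tm7sf2* (fell by 0.81), and 1 in hippocampus, *Sqle* (fell by 0.60), against 2.51% and 2.63% of all genes. *Sqle* lay at 8.40 to 9.24 (median 8.97) in P15 cerebellum and at 6.87 to 7.65 (median 7.45) at P30, without overlap, and fell by 1.57 (2.98-fold, adjusted p = 2.82e-13). *Fdps* fell by 1.42, *Tm7sf2* by 0.90, *Mvd* by 0.83, *Nsdhl*, a sterol dehydrogenase, by 0.55, *Idi1* and *Cyp51* by 0.48 each, and *Hmgcs1* by 0.41.

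Without the displaced arrays 6 of these 8 cerebellum calls were kept and *Tm7sf2* (-0.76) and *Nsdhl* (-0.45) were lost, with 6.62% of all genes called. In hippocampus the *Sqle* call was lost (-0.54, adjusted p = 0.014) and *Tm7sf2* (-0.88) and *Abca1* (-0.83) were called instead, with 2.77% of all genes called. Of the myelin genes 5 of 11 were called higher in cerebral cortex, 1 in cerebellum and 5 in hippocampus, and none lower. The 6 immature neuron genes were all called lower in cerebellum, with a median of -2.71.

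**Figure D3:**
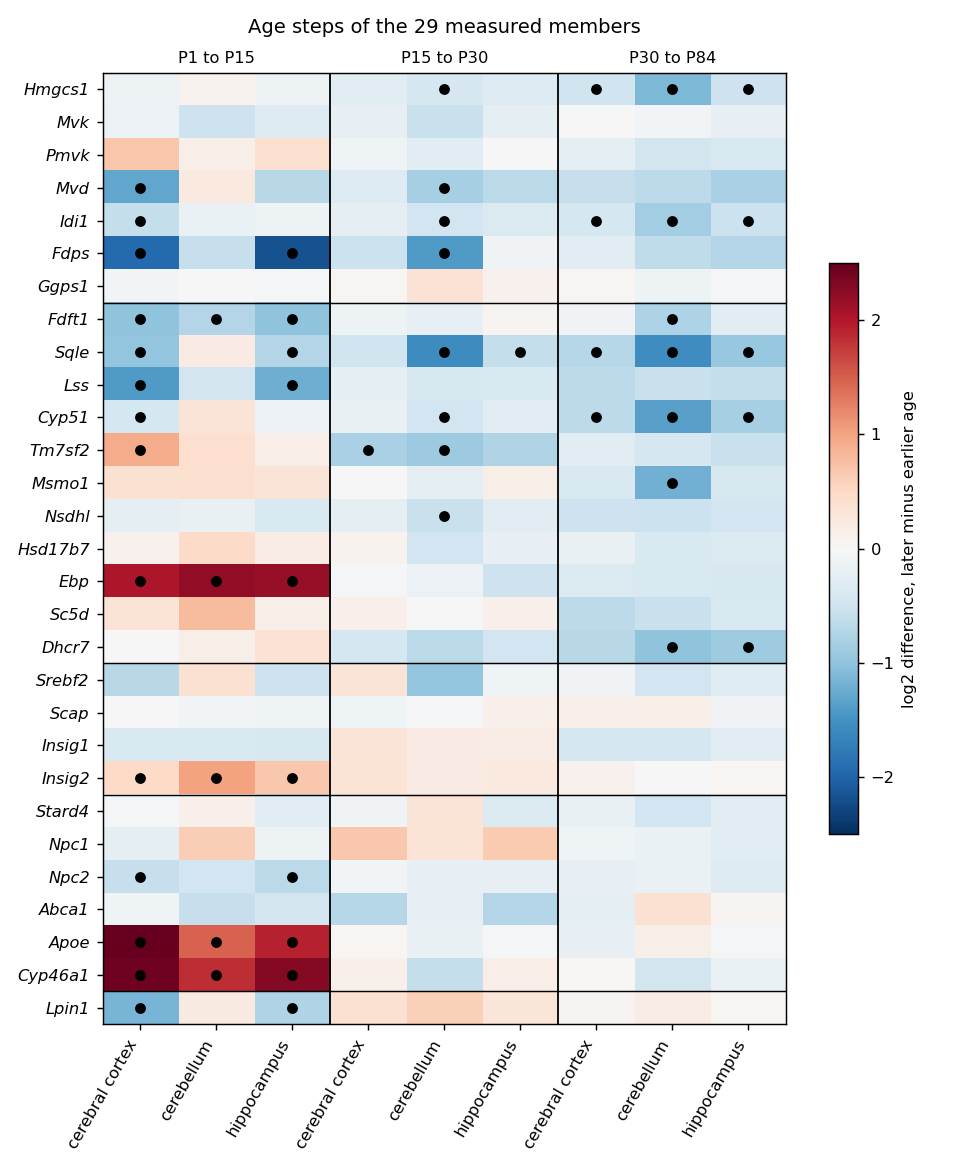
Log2 difference between successive ages (colour, blue for lower at the later age) for the 29 measured members (rows, in blocks by role) in 3 regions and 3 age steps (columns); black dots mark calls. In the last step the dots sit on *Hmgcs1*, *Idi1*, *Fdft1*, *Sqle*, *Cyp51*, *Msmo1* and *Dhcr7* alone.

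In all, 18 members were called in at least 1 of the 9 age steps and 11 in none, with all arrays. Over all 72 arrays *Mvk* ran from 3.70 to 5.67 (median 4.36) and *Pmvk* from 5.52 to 7.61 (median 6.63), both kinases of the mevalonate pathway. *Ggps1* kept to 8.31 to 9.49 (median 8.77) and *Scap* to 8.12 to 9.11 (median 8.82). *Hsd17b7*, a ketosterol reductase, ran from 4.19 to 6.49 (median 5.54) and *Sc5d*, the sterol desaturase, from 5.53 to 8.45 (median 7.42). *Srebf2* ran from 4.66 to 7.69 (median 6.51) and *Insig1*, a relative of *Insig2*, from 6.91 to 9.0 (median 8.04). *Stard4*, a cytosolic sterol carrier, ran from 6.33 to 8.62 (median 7.66), *Npc1*, the lysosomal export protein, from 4.90 to 7.08 (median 6.31), and *Abca1*, called in 1 step each without the displaced or the dim arrays as given above, from 6.93 to 9.34 (median 8.12). Of these 11, *Mvk*, *Pmvk*, *Sc5d*, *Srebf2*, *Insig1* and *Npc1* were called in no region comparison either.

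The cerebellum was set against the forebrain, the mean of cerebral cortex and hippocampus, at each age. Most differences called were lower in cerebellum: 2 members were called higher and 10 lower at P1, 1 and 2 at P15, 4 and 9 at P30, and 3 and 12 at P84. The shares of all genes called were 19.2%, 17.8%, 24.4% and 24.4%. Of the 18 synthesis genes 11 were called lower in adult cerebellum and 1 higher, with a median of -0.66.

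*Msmo1* had the lowest adult value of the synthesis genes relative to forebrain. At P84 its cerebellum arrays (6.88 to 7.83) lay below all cerebral cortex (8.81 to 9.36) and hippocampus (8.06 to 9.53) arrays, a difference of -1.60 (3.02-fold lower, adjusted p = 1.43e-15). *Fdft1* was 2.76-fold lower in adult cerebellum (log2 difference -1.46, adjusted p = 3.86e-12), and *Sqle* differed by -1.42 (adjusted p = 7.84e-15). *Fdft1* was also called lower at P1 (-0.97), P15 (-0.70, or -0.88 without the displaced arrays) and P30 (-0.86), and is the synthesis gene called lower at all 4 ages. *Hmgcs1* (-0.86), *Cyp51* (-0.70), *Dhcr7* (-0.71) and *Idi1* (-0.38) were lower at P84, and *Fdps* at P1 (-1.30), P30 (-0.91) and P84 (-1.04).

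*Ebp* went the other way and was called higher in cerebellum at each age (1.11, 1.24, 1.35 and 1.35; 1.72 at P15 without the displaced arrays). Its adult arrays lay at 7.04 to 7.91 in cerebellum, 5.47 to 6.98 in cerebral cortex and 5.78 to 6.58 in hippocampus, without overlap between cerebellum and the others. *Ggps1* was higher at P30 (0.45).

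At P84 the difference of *Cyp46a1* was larger in size than that of any other member. Its cerebellum arrays lay at 5.94 to 6.37 at P84, against 8.62 to 9.40 in cerebral cortex and 7.83 to 8.56 in hippocampus, a difference of -2.42 (5.34-fold lower, adjusted p = 3.58e-20), and the difference was -0.78 at P1, -1.29 at P15 (-1.55 without the displaced arrays) and -2.03 at P30. *Abca1* was higher in adult cerebellum (0.91), where it lay at 7.88 to 8.76 against 6.93 to 7.61 in cerebral cortex and 7.30 to 8.14 in hippocampus. *Lpin1* was lower at P1 (-0.68) and higher at P30 (0.76) and P84 (0.89), and *Stard4* was higher at P30 (0.99). *Apoe* was higher at P1 (0.67) and differed by -0.01 at P84. *Scap* was called lower at P30 (-0.33), where it lay at 8.12 to 8.82 in cerebellum and at 8.57 to 9.08 in forebrain arrays.

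Without the displaced arrays 6 members were called at P15, since *Tm7sf2* (-0.75), *Msmo1* (-0.60) and *Scap* (-0.37) were added, and 24% of all genes were called. Without the dim arrays *Mvd*, *Msmo1* and *Lpin1* lost their P1 call, and *Srebf2* (-1.28) was called at P84. Mature neuron genes differed too (5 of 7 called lower in adult cerebellum, median -0.92), while myelin genes had a median of 0.11 (2 of 11 lower, none higher). The part of cell composition in the regional differences was not tested.

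**Figure D4:**
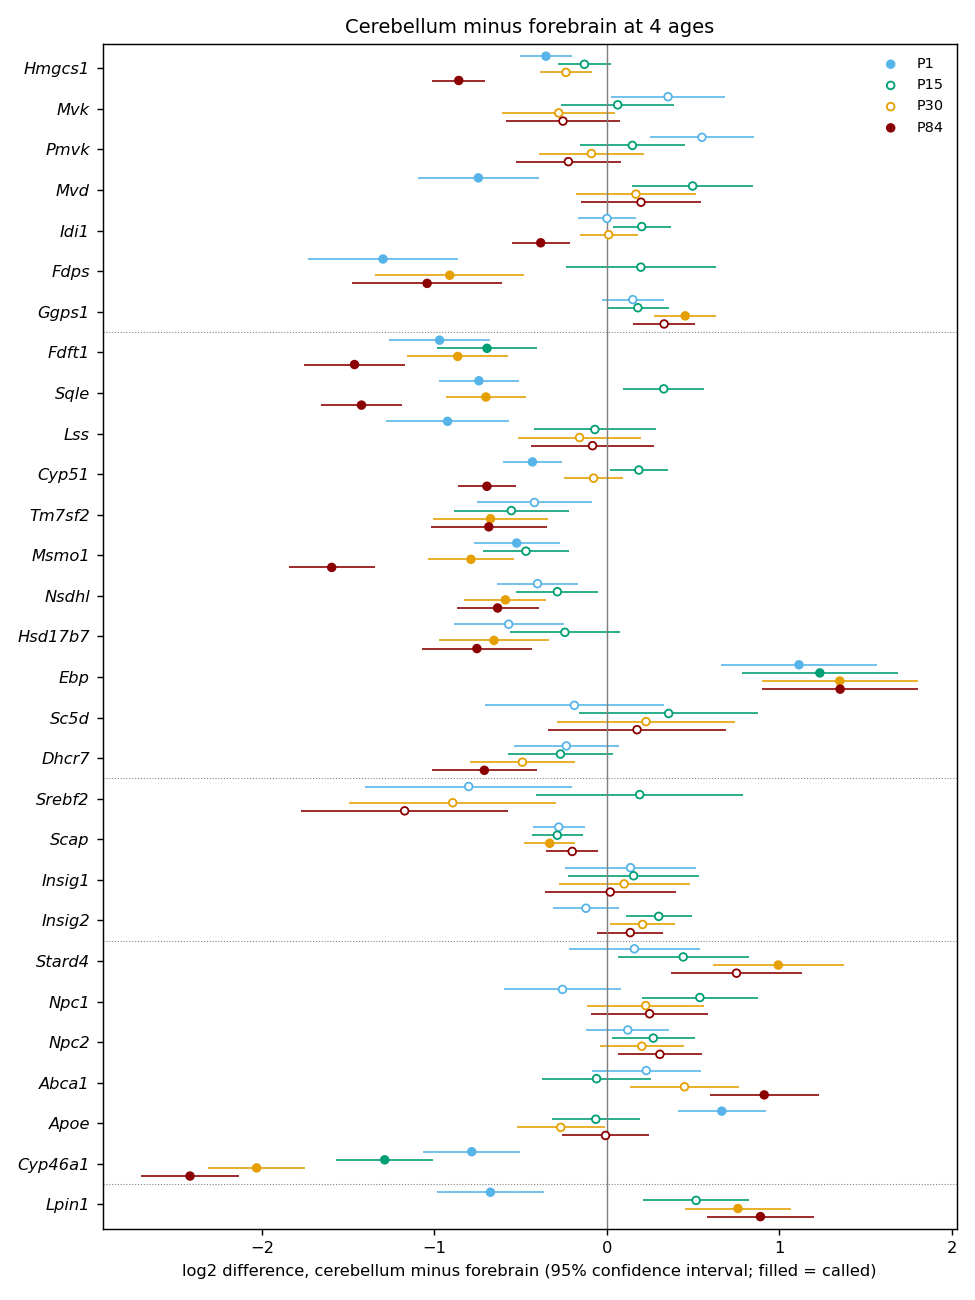
Log2 difference cerebellum minus forebrain (x axis) with 95% confidence interval for each measured member at 4 ages; filled points were called. Displaced arrays are included at P15. *Ebp* lies right of 0 at each age, between 1.11 and 1.35 (1.72 at P15 without the displaced arrays), and *Cyp46a1* moves left with age from -0.78 to -2.42.

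Whether a step differed between cerebellum and forebrain was tested directly. From P1 to P15, 5 members differed upward and 1 downward (14.4% of all genes called): *Fdps* (1.5), *Mvd* (1.24), *Lpin1* (1.19), *Sqle* (1.07) and *Cyp51* (0.62) fell less in cerebellum or rose there, and *Apoe* (-0.73) rose less. *Sqle* had a step of 0.21 in cerebellum against -0.99 and -0.73 in cerebral cortex and hippocampus. From P15 to P30 *Sqle* fell more in cerebellum (-1.03, 2.75% of all genes called), and from P30 to P84 *Hmgcs1* (-0.62), *Cyp51* (-0.62) and *Msmo1* (-0.81) did (0.121% called). Without the displaced arrays *Cyp46a1* (-0.77) was added in the first step, and without all 5 doubted arrays *Fdps* was lost there (1.30, adjusted p = 0.00145, moderated t under 4). Over 13 alternative settings the *Fdps* difference in that step ran from 0.53 to 1.7, and its call was lost in 3 of them. Leaving out single arrays lost the *Apoe* call for 23 of 36 arrays and the *Msmo1* call for 15 of 36.

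Few members differed between hippocampus and cerebral cortex. *Apoe* was higher in P1 hippocampus (0.78, 3.08% of all genes called), where it lay at 9.30 to 10.54 against 8.81 to 9.98. At P15 *Cyp46a1* was called lower in hippocampus (-0.68, 4.69% called), a call lost without the displaced array (-0.50, adjusted p = 0.0163). At P30 limma's test called no member (5.47% of all genes), and 4 had an unadjusted p under 0.05. At P84 *Cyp46a1* (-0.83) and *Tm7sf2* (-0.84) were lower in hippocampus (5.73% called), and the *Tm7sf2* call was lost without the dim arrays (-0.76, adjusted p = 0.0171) while *Stard4* (-0.91) was gained.

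Few members were called between Ts1Cje and disomic mice. Over 12 comparisons, 2 of 348 values were called, both higher in Ts1Cje, against 0.103% of all gene and comparison pairs, and 41 had an unadjusted p under 0.05. None was called in the averages of the 4 ages (0.253%, 0.264% and 0.275% of all genes in cerebral cortex, cerebellum and hippocampus), where 7 of 87 values had an unadjusted p under 0.05. The share of all genes with an unadjusted p under 0.05 is not given, so these counts have no background here.

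*Idi1* was called in P84 cerebellum (0.165% of all genes called). Its Ts1Cje arrays lay at 8.38, 8.46 and 8.97 and its disomic arrays at 7.84, 7.95 and 8.10, without overlap, a difference of 0.64 (1.56-fold, 95% confidence interval 0.36 to 0.92, adjusted p = 0.0249). In P84 cerebral cortex the arrays lay at 8.76, 8.98 and 8.99 in Ts1Cje and at 8.42, 8.47 and 8.56 in disomic mice, and in hippocampus at 8.82, 8.93 and 9.04 and at 8.14, 8.38 and 8.52. The groups did not overlap in either region, but the differences of 0.42 and 0.58 were not called (adjusted p = 0.456 and 0.105). The call in cerebellum was lost without Ts1Cje replicate 3 (0.46, adjusted p = 0.844), disomic replicate 2 (adjusted p = 0.173) or disomic replicate 3 (adjusted p = 0.311), and the other *Idi1* probe set gave 0.37 (adjusted p = 1).

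*Msmo1* was called in P84 hippocampus (0.104% of all genes called), at 9.25, 9.25 and 9.53 in Ts1Cje and at 8.06, 8.41 and 8.77 in disomic mice, a difference of 0.93 (1.91-fold, 95% confidence interval 0.52 to 1.34, adjusted p = 0.0416). It was no longer called without the dim arrays, with the same difference of 0.93 (adjusted p = 0.0708), and it was lost when any of 5 of the 6 arrays was left out, with adjusted p up to 0.964. Without all 5 doubted arrays it was called (0.93, adjusted p = 0.0284). The mean of the 2 *Msmo1* probe sets gave no call. Over 12 alternative settings other than single arrays, the *Msmo1* difference ran from 0.38 to 0.93. Its call was lost in 4 of them (limma, adjusted p up to 0.605). *Sqle* lay at 7.41, 7.56 and 7.62 in Ts1Cje and at 6.70, 6.73 and 6.77 in disomic hippocampus at P84, without overlap, and its difference of 0.80 was not called (adjusted p = 0.118) except without the 5 doubted arrays (0.82, adjusted p = 0.0466). In P84 cerebellum *Msmo1* lay at 7.43, 7.81 and 7.83 against 6.88, 7.05 and 7.20, and its difference of 0.64 was not called (adjusted p = 0.719). The paper lists *Fdft1*, *Sqle* and *Msmo1* (as *Sc4mol*) under steroid biosynthesis for its P84 hippocampus genes. *Fdft1* has 4 probe sets, and with the probe set used here it was not called there. The other *Fdft1* probe sets are not given for this comparison, so the paper's listing is not checked by it. On the probe set used here, *Fdft1* lay at 9.20, 9.54 and 9.66 in Ts1Cje and at 9.17, 9.18 and 9.96 in disomic P84 hippocampus.

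At P84 the mean of the 18 synthesis genes was higher on each Ts1Cje array than on each disomic array of the same region. It lay at 7.14 to 7.31 against 6.71 to 7.04 in cerebral cortex, at 6.48 to 6.74 against 6.32 to 6.42 in cerebellum and at 6.93 to 7.11 against 6.60 to 6.78 in hippocampus. Without the dim arrays the disomic ranges were 7.02 to 7.04 in cerebral cortex and 6.71 to 6.78 in hippocampus, still below the Ts1Cje arrays. At P1, P15 and P30 the Ts1Cje and disomic ranges of this mean overlapped in each region. The mean is a description of the arrays, and no p-value is given for it. Of the 18 genes 14 were above 0 in each region at P84, with medians of 0.28, 0.14 and 0.21, where the median of all genes was 0.04, -0.01 and 0.00. Over all 29 members the median went from 0.276 to 0.177 in cerebral cortex and from 0.166 to 0.085 in hippocampus when the dim arrays were left out. Since each mouse gave all 3 regions, the regions are not independent of each other.

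At P1, 15 of 18 synthesis genes were above 0 in cerebellum (median 0.17), where the median over the 29 members went from 0.203 to -0.011 without the dim array. At P30 the direction was not the same: 15 of 18 synthesis genes were below 0 in cerebellum (median -0.28), and the medians were -0.08 and 0.03 in cerebral cortex and hippocampus. A comparison chosen after seeing these values asked whether the change from P30 to P84 differed between genotypes. No member was called in any region (0%, 0% and 0.0055% of all genes in cerebral cortex, cerebellum and hippocampus; 7, 6 and 6 members with an unadjusted p under 0.05), and the lowest adjusted p was that of *Idi1* in cerebellum (0.95, adjusted p = 0.0656). In a fit with a replicate block spanning the 4 ages, *Idi1* was called in cerebellum (0.95, adjusted p = 0.0385). That block joins different mice of each age under 1 number, so it does not pair animals across ages. With mouse as a random block no member was called in any region. In the main fit a difference between genotypes in this step was not shown for any member.

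**Figure D5:**
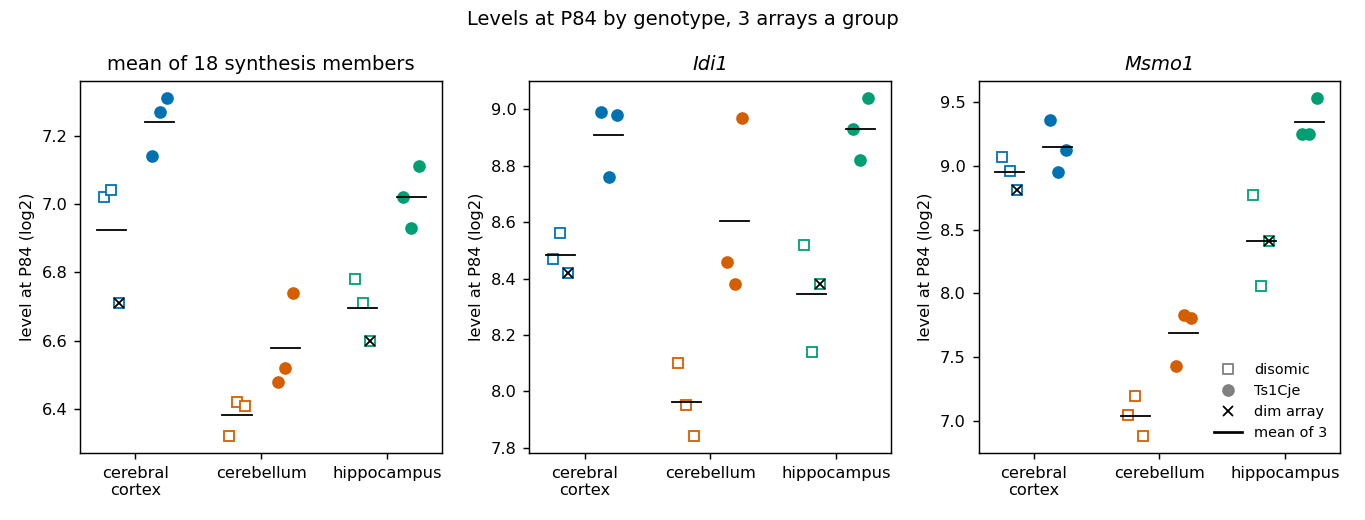
Log2 level at P84 (y axis) on each array, by region and genotype, for the mean of 18 synthesis genes, *Idi1* and *Msmo1*; bars are means of 3 arrays and crosses mark dim arrays. Ts1Cje arrays lie above disomic arrays of the same region in the first and second panels, and in the third panel *Msmo1* overlaps between genotypes in cerebral cortex.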

How the data were processed

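Total RNA of 3 brain regions was measured on 72 arrays, 3 in each of 24 groups of region, age and genotype as the labels give them. The deposited values are log2 intensities that the authors made with gcRMA (GCRMA in the submitters' processing notes, version not given in the sources used here); they were used as deposited. The depth of an array is not a count, and the number of arrays limits the precision.

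All 45101 probe sets were fitted with 24 group means in limma 3.58.1 (R 4.3.3, lmFit and eBayes), and p-values were adjusted by Benjamini-Hochberg over all probe sets in each comparison. A call needed a moderated t of at least 4 in size and an adjusted p of at most 0.05. The platform annotation gave 1 symbol for 34958 probe sets, several for 932 and none for 9211, and probe sets with several or none were not named. Each gene took its probe set with the highest mean over the 72 arrays. All members could be named, and values by array are given for those with the largest changes. The members, lists and doubted arrays were chosen with earlier results of these data known. The contrast of genotypes in the change from P30 to P84 was added after seeing the data.

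Same-numbered Ts1Cje and disomic arrays deviated together in most pairs but not in all (correlation above 0.1 in 23 of 36 pairs, median 0.178). Arrays of 2 regions with 1 number did so in 47 of 72 pairs (median 0.21). No block was used in the main fit, which treats the arrays as independent, and blocks were run as alternatives. Whether a number marks the same mouse across regions is not given in the labels. The p-values measure the spread between these arrays. Alternatives were replicate blocks, mouse as a random block, a trended prior, quantile normalization, a filter at a mean of 5, other adjustments, a fit per region, the mean of all probe sets of a gene, each genotype alone, and leaving out arrays. The fit was also run on simulated data with independent noise and shifts placed in P84 cerebellum alone. Those data lack the shared deviations between arrays, so that the run does not test their effect. Some genes of the pathway are not analysed here.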

Additional observations from a re-analysis of the deposited data

Results flagged for a closer look

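In 156 groups of 6 arrays of the members described array by array, 11 held an array far from the other 5, and chance alone gives about 1 in 20 groups, or 7.8. At P84 in cerebellum, Ts1Cje replicate 3 lay at 9.12 for *Fdft1* (others 7.76 to 8.15) and at 7.75 for *Cyp51* (others 6.91 to 7.17). In P1 hippocampus, disomic replicate 3 lay at 11.27 for *Fdft1* (others 10.49 to 10.64), at 9.30 for *Apoe* (others 10.24 to 10.54) and at 7.27 for *Lpin1* (others 6.55 to 6.79). In P30 hippocampus, Ts1Cje replicate 3 lay at 8.85 for *Msmo1* (others 9.30 to 9.43). *Apoe* lay at 11.97 in P30 cerebellum of disomic replicate 1 (others 11.72 to 11.75) and at 12.03 in P84 cerebral cortex of disomic replicate 2 (others 11.62 to 11.76). The displaced P15 array labelled hippocampus gave 8.49 for *Scap* (others 8.83 to 8.97). The dim arrays gave 7.87 for *Abca1* in P1 cerebellum (others 8.77 to 9.17) and 5.32 for *Lpin1* in P84 cerebral cortex (others 6.42 to 6.84).

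The change between ages differed between cerebellum and forebrain for several members by a test of the difference itself (limma). From P1 to P15 the difference was 1.5 for *Fdps* (0.53 to 1.7 over 13 alternative settings), 1.24 for *Mvd* and 1.19 for *Lpin1*. In the same step it was 1.07 for *Sqle*, 0.62 for *Cyp51* and -0.73 for *Apoe*. From P15 to P30 it was -1.03 for *Sqle*. From P30 to P84 it was -0.81 for *Msmo1* and -0.62 for both *Hmgcs1* and *Cyp51*.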

How the results depend on the processing

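Direction was scored for the single-gene calls of P30 to P84, of the steps between regions and of the genotype comparisons. None of these reversed under any alternative. The other comparisons were scored by their counts alone. The counts of members called were within 1.5 times the reported count except as follows. The P30 to P84 counts (4, 7 and 5 in cerebral cortex, cerebellum and hippocampus) became 0 in cerebral cortex and 1 in hippocampus with Ts1Cje arrays only, and 8 in hippocampus with the mean of all probe sets of a gene. The cerebral cortex P1 to P15 count of 14 became 8 with Ts1Cje arrays only, and the cerebellum count of 5 became 13 with the adjusted p alone. From P15 to P30, the cerebellum count of 8 became 13 with the adjusted p alone and 2 with disomic arrays only. The cerebral cortex count of 1 became 2 with a replicate block over all ages or mouse as a random block, 3 with quantile normalization or a fit per region, 4 with the adjusted p alone and 0 with either genotype alone. The hippocampus count of 1 became 2 with that block, with mouse as a block, with a fit per region or without the displaced arrays, 3 with quantile normalization or without the 5 doubted arrays, 6 with the adjusted p alone and 0 with disomic arrays only.

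For cerebellum minus forebrain, the P1 count of 12 became 7 with disomic and 3 with Ts1Cje arrays only. The P15 count of 3 became 11 with the adjusted p alone, 6 without the displaced arrays, 8 without the 5 doubted arrays and 1 with disomic arrays only. With disomic arrays only the P30 count of 13 became 4 and the P84 count of 15 became 7. For hippocampus minus cerebral cortex, the P1 count of 1 became 2 with the adjusted p alone and 0 with disomic arrays only. The P15 count of 1 became 2 with the adjusted p alone and 0 without the displaced arrays, without the 5 doubted arrays or with Ts1Cje arrays only. The P30 count of 0 became 1 with mouse as a block or quantile normalization and 2 with the adjusted p alone, and the P84 count of 2 became 0 with disomic arrays only. Of the tests of a step between regions, the P1 to P15 count of 6 became 3 with either genotype alone, the P15 to P30 count of 1 became 3 with the replicate block over all ages or the adjusted p alone and 0 with disomic arrays only, and the P30 to P84 count of 3 became 1 with disomic and 0 with Ts1Cje arrays only.

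The 2 genotype calls became 1 with the filter, when adjusted over the 12 comparisons jointly, without the dim arrays or without the 3 P1 arrays where *Xist* exceeded *Eif2s3y*, and 0 with a fit per region or the mean of all probe sets. The replicate block (number within each age, or over all ages) gave 1 call in place of 0 in the genotype averages, and the mean of all probe sets gave 2. The change from P30 to P84 between genotypes in cerebellum had 1 call in place of 0 with the block over all ages (*Idi1*, adjusted p = 0.0385). The numbers did not pair the samples in all pairs.

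With single arrays left out, counts ran from 12 to 14, 0 to 2 and 3 to 6 in cerebral cortex, from 4 to 6, 5 to 9 and 6 to 8 in cerebellum and from 9 to 11, 0 to 3 and 5 to 6 in hippocampus, in order of the steps. They ran from 9 to 13, 2 to 5, 9 to 13 and 13 to 17 for cerebellum minus forebrain and from 1 to 2, 0 to 1, 0 to 1 and 1 to 3 for hippocampus minus cerebral cortex, in order of age. They ran from 5 to 6, 1 to 2 and 2 to 4 for the steps between regions, from 1 to 3 for the genotype comparisons and from 0 to 0 for the averages. The causes of these changes were not tested.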
